A study of Homo sapiens with 12 samples.

Results

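CD82, NINJ1, PERP, KITLG and EDA2R are 5 genes for proteins of the cell surface that have been described as targets of p53, and their transcripts were followed in U2OS cells after 2 agents that raise p53. They were chosen by name with earlier results of these data known, so the counts below are descriptive. Every probe set that the array's annotation pairs with exactly 1 of these genes was taken. That gave 5 of 19775 genes and 13 of 54675 probe sets, of which 9 passed a filter on low signal that left 32768 probe sets to be tested. U2OS is a human osteosarcoma line, and the labels state that it carries its own wild-type p53. The groups were cells given 0.6 µg/ml doxorubicin, with untreated cells as their control, and cells given 10 µM nutlin-3, with cells in 0.1% DMSO as theirs. All 4 groups were labelled as 24 h, each had 3 arrays (12 in all), and all came from this single line. Doxorubicin is an anthracycline that damages DNA, and nutlin-3 is a small molecule that occupies the p53 pocket of MDM2 and so frees p53 from its degradation.

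When p53 accumulates it binds DNA and raises the transcription of genes that stop the cell cycle, drive cell death or alter how a cell meets its neighbours. The 5 genes encode proteins of the cell surface, and some of them also take part in cell death. CD82 is a tetraspanin, a membrane protein that gathers integrins and growth factor receptors into patches and is known as a suppressor of metastasis. NINJ1 encodes ninjurin 1, a small adhesion protein that also tears the plasma membrane open in lytic cell death. PERP is a relative of PMP22 found in desmosomes, the junctions that rivet epithelial cells together, and it takes part in p53-dependent apoptosis. KITLG encodes stem cell factor, the ligand of the receptor tyrosine kinase KIT, which is made on the cell surface and can be cut free. EDA2R is a receptor of the TNF receptor family for an isoform of ectodysplasin A.

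The genes lie apart from each other on GRCh38.p14: CD82 on chromosome 11 from 44564409 to 44620358, NINJ1 on chromosome 9 from 93121496 to 93134251, PERP on chromosome 6 from 138088505 to 138107419, KITLG on chromosome 12 from 88492793 to 88580471, and EDA2R on chromosome X from 66595637 to 66639269. Since p53 acts through DNA, the 250 bases before a RefSeq start site are shown for the 4 genes whose transcripts passed the test with doxorubicin. They run 5′ to 3′ on the gene's strand, and capitals mark 10 bases closest to the p53 consensus decamer. This decamer is the unit that occurs as a pair in a p53 response element. Only stretches with the fixed C and G of the consensus were compared, and the first was marked where several were equally close. The windows are chr11:44565413-44565662 on the plus strand for CD82, and on the minus strand chr12:88580472-88580721 for KITLG, chr9:93134252-93134501 for NINJ1 and chr6:138107420-138107669 for PERP.
CD82: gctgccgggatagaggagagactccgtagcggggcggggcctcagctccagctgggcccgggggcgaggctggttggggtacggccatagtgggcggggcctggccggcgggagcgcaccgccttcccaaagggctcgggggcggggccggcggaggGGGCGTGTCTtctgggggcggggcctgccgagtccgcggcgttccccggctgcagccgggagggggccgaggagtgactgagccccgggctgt
KITLG: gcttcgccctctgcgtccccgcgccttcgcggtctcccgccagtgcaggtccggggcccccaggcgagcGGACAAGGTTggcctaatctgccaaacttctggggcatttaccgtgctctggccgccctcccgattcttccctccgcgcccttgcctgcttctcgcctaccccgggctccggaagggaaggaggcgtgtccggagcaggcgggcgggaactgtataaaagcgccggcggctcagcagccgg
NINJ1: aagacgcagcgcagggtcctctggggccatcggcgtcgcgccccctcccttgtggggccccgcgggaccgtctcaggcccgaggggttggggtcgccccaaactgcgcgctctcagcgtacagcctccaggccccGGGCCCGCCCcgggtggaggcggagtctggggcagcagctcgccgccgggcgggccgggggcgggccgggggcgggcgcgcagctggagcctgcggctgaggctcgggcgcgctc
PERP: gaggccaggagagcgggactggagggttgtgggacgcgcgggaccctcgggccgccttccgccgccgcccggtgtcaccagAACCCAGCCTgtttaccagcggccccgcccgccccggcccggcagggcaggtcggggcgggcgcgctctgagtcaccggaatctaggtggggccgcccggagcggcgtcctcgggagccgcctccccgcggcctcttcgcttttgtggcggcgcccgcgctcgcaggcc

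The decamer, which equals its own reverse complement in consensus form, was searched from 250 bases before to 50 bases after each start site. The promoters searched held 2 starts for EDA2R and 1 for each other gene, and none of these 6 windows held an exact match. The CD82 window lies inside the gene span given above, which begins at 44564409, so DNA before that position was not searched. An exact match occurred in 2329 of 35116 promoters of this length, or 6.63%. The marked 10 bases in CD82 (first base at -93) and in KITLG (first base at -181) had 1 mismatch. By the same rule 45.1% of all promoters equal or better this. The closest in NINJ1, PERP and both EDA2R windows had 2. The TATA motif TATAAA, searched on both strands, was found in KITLG alone, at -29, on a background of 11.5% of promoters, and can be read near the end of its sequence. The GC motif GGGCGG, searched likewise and held by 45% of promoters, occurred 4 times in CD82, 5 times in NINJ1, 5 times in PERP, 2 times in KITLG, and 1 and 6 times in the windows of EDA2R. One of the copies in NINJ1 overlaps the bases in capitals. The windows cover only the DNA next to these start sites, so most of each gene and distal regions were not searched.

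The arrays shared 1 scale, with array medians between 79.6 and 113.6 signal units, and arrays of a group correlated at 0.972 to 0.987. The labels do not say that replicates were separate cultures, so the p-values speak for the scatter among these arrays alone, and that scatter may be technical. CDKN1A, the cell cycle inhibitor that is the best known p53 target, averaged 7678 ± 1114 signal units with doxorubicin and 1361 ± 34.1 without treatment, and 7470 ± 393 with nutlin-3 and 1507 ± 187 in DMSO (SD, n = 3 each). MDM2, the ubiquitin ligase that p53 induces and nutlin-3 blocks, had log2 changes of 1.42 with doxorubicin (SE 0.07, adjusted p = 1.8e-10) and 2.14 with nutlin-3 (SE 0.07, adjusted p = 2.8e-11). The 3' to 5' signal ratio of the ACTB control probe sets, a measure of RNA quality, was 2.48, 3.29 and 3.59 on the doxorubicin arrays, against 1.44, 1.57 and 1.58 on the untreated arrays (exact two-sided permutation p = 0.1, the smallest that 3 against 3 arrays allow). It was 1.31 ± 0.0260 with nutlin-3 and 1.28 ± 0.0281 in DMSO (exact permutation p = 0.2), and the GAPDH ratio was 1.07 ± 0.116 with doxorubicin and 1.02 ± 0.0356 without treatment (SD, n = 3 each; exact permutation p = 0.6). Of 9 osteosarcoma and osteoblast markers on the array 5 passed the filter, with summed signals of 82199 to 91691 with doxorubicin, 78121 to 85658 without treatment, 77089 to 85742 with nutlin-3 and 73371 to 81918 in DMSO. COL1A1, SPARC and VIM made up most of this sum, and with doxorubicin COL1A1 had a log2 change of 0.26 (adjusted p = 0.021), while RUNX2, the osteoblast transcription factor, had -0.75 (adjusted p = 0.00018) and SPP1, osteopontin, had -0.77 (adjusted p = 0.0042). ALPL, IBSP and SP7, which mark bone-forming cells, did not pass. Of 5 epithelial markers 4 passed, including EPCAM, KRT14 and KRT18, and their sum was 12612 to 15826 with doxorubicin against 19505 to 20477 without treatment, and 18054 to 19476 with nutlin-3 against 13718 to 14551 in DMSO. KRT18, a keratin, made up most of that sum and had log2 changes of -0.49 with doxorubicin (adjusted p = 0.00029) and 0.48 with nutlin-3 (adjusted p = 0.0011). KRT14 had -1.66 with doxorubicin (adjusted p = 2.4e-05). EPCAM, the epithelial adhesion molecule, had -0.31 with doxorubicin (adjusted p = 0.025). Its change with nutlin-3 was -0.68 (adjusted p = 0.00021), opposite to the rise of the sum. In DMSO against no treatment KRT14, EPCAM and KRT18 were also lower, at -1.79, -0.68 and -0.47 (adjusted p = 0.0002, 0.0007 and 0.0027). CDH1 was not called there (-0.10, adjusted p = 0.84). Leukocyte and endothelial markers each had 1 of 4 past the filter, with sums of at most 230 and 330. The part of RNA quality and of these markers in the results was not tested.

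With doxorubicin, 8 of the 9 tested probe sets rose and none fell; only EDA2R did not pass the test. With nutlin-3, 6 of 9 rose and none fell: both probe sets of CD82, the 1 of NINJ1 and all 3 of KITLG. A probe set was called at an adjusted p under 0.05 in limma, adjusted over all probe sets tested. Doxorubicin called 47.4% of all probe sets (23.7% higher and 23.7% lower), and nutlin-3 called 17.9% (8.40% higher and 9.54% lower). Both agents together called 5.29% of all probe sets higher, a class that held 6 of the 9. The arrays of 8 probe sets lay wholly above their controls with doxorubicin, where 27.3% of all probe sets lay wholly above and 25.3% wholly below. Those of 6 did so with nutlin-3, where 17.9% lay wholly above and 18.9% wholly below. The median log2 change of the 9 was 1.20 with doxorubicin, against 0.04 over all probe sets, and 1.22 with nutlin-3, against -0.01. As whole cultures were measured, more cells carrying a transcript and more transcript per cell cannot be told apart.

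**Figure D1:**
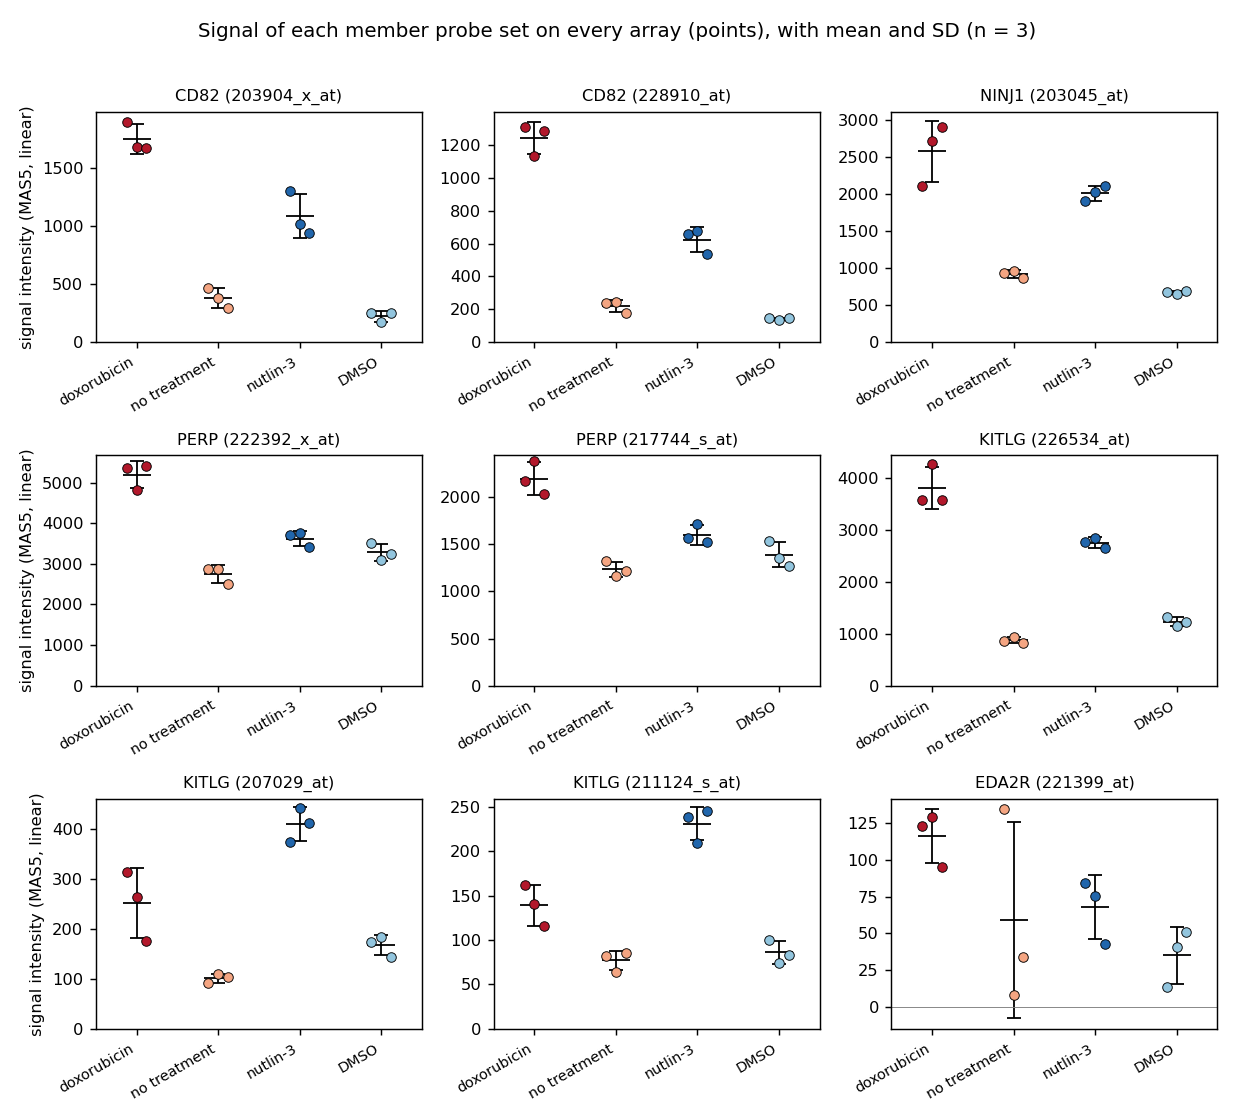
Signal intensity (linear MAS5 units) of the 9 tested probe sets on every array, with doxorubicin, no treatment, nutlin-3 and DMSO from left to right. Points are arrays, and bars are the mean and SD of 3 arrays. CD82, NINJ1 and KITLG lie higher with either agent than in its control, the nutlin-3 and DMSO points of PERP overlap, and 1 untreated array of EDA2R (134) lies above all others.

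CD82, the tetraspanin, had among the largest rises of the set with both agents. Its probe set 203904_x_at gave 1901, 1689 and 1675 signal units with doxorubicin, against 469, 382 and 300 without treatment. With nutlin-3 it gave 1305, 1022 and 943, against 252, 173 and 254 in DMSO. The groups did not overlap, and their order ran from doxorubicin through nutlin-3 and no treatment to DMSO with no overlap between neighbours. The log2 change was 2.17 with doxorubicin (SE 0.17, 95% interval 1.80 to 2.53, adjusted p = 3.2e-08) and 2.20 with nutlin-3 (SE 0.17, 95% interval 1.83 to 2.56, adjusted p = 1.4e-07). Ranked by change, this probe set stood at place 434 from the top of 32768 with doxorubicin and at place 81 with nutlin-3. The second probe set, 228910_at, gave 1310, 1132 and 1284 with doxorubicin, against 241, 245 and 178 without treatment. It gave 659, 674 and 537 with nutlin-3, against 146, 136 and 145 in DMSO. The same order of groups held, again without overlap, and the log2 change was 2.42 with doxorubicin (SE 0.14, adjusted p = 9.5e-10) and 2.01 with nutlin-3 (SE 0.14, adjusted p = 4.5e-08). Across the 12 arrays the probe sets of this gene correlated at a Pearson r of 0.99. Within each array 203904_x_at was 1.30 to 1.49 times 228910_at with doxorubicin and 1.56 to 1.94 times without treatment. These ratios did not overlap (exact permutation p = 0.1, the smallest possible here), while those with nutlin-3 and in DMSO did (exact permutation p = 0.6).

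NINJ1, the adhesion and membrane rupture protein, rose with each agent. Its single probe set, 203045_at, gave 2112, 2719 and 2906 signal units with doxorubicin, against 931, 968 and 868 without treatment. It gave 1907, 2026 and 2113 with nutlin-3, against 683, 657 and 693 in DMSO. Each agent's arrays lay above all arrays of its control, while the doxorubicin and nutlin-3 arrays overlapped at 2112 and 2113. The log2 change was 1.46 with doxorubicin (SE 0.11, adjusted p = 2.0e-08) and 1.55 with nutlin-3 (SE 0.11, adjusted p = 5.6e-08). The difference between these responses was -0.09 with a 95% interval of -0.42 to 0.24. The doxorubicin array with the lowest NINJ1 signal was also the one with the lowest ACTB ratio, 2.48.

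PERP, the desmosome and apoptosis protein, rose with doxorubicin and did not pass the test with nutlin-3. Probe set 222392_x_at gave 5371, 4821 and 5401 signal units with doxorubicin, against 2872, 2875 and 2501 without treatment. With nutlin-3 it gave 3700, 3759 and 3414, against 3504, 3097 and 3246 in DMSO. The doxorubicin arrays stood above every other array, and the nutlin-3 and DMSO arrays overlapped. The log2 change was 0.92 with doxorubicin (SE 0.09, adjusted p = 2.7e-07) and 0.14 with nutlin-3 (SE 0.09, 95% interval -0.04 to 0.33, adjusted p = 0.31). Probe set 217744_s_at gave 2174, 2382 and 2028 with doxorubicin against 1317, 1166 and 1219 without treatment, and 1561, 1719 and 1519 with nutlin-3 against 1532, 1358 and 1272 in DMSO. Its pattern was the same, with a log2 change of 0.82 with doxorubicin (SE 0.10, adjusted p = 3.9e-06) and 0.21 with nutlin-3 (SE 0.10, 95% interval -0.01 to 0.42, adjusted p = 0.18). The upper ends of these nutlin-3 intervals, 0.33 and 0.42, lay below the doxorubicin changes.

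A further 3 probe sets of PERP did not pass the filter of a mean signal of 54.6. One of them, 236009_at, gave 95.3, 56.3 and 60.3 with doxorubicin against 23.8 to 35.1 without treatment, and 26.3, 10.8 and 11.1 with nutlin-3 against 23.3, 18.1 and 17.3 in DMSO. In a fit without the filter it had a log2 change of 0.90 with doxorubicin (SE 0.31, adjusted p = 0.036) and -0.18 with nutlin-3 (SE 0.31, adjusted p = 0.86). The other 2 stayed dim, with at most 33.3 signal units for 240797_at and 9.09 for 1556990_at on any array.

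KITLG, the ligand of KIT, rose with both agents by all 3 of its tested probe sets, but its probe sets ranked the agents differently. The brightest, 226534_at, gave 3574, 4267 and 3572 signal units with doxorubicin, against 862, 933 and 819 without treatment. With nutlin-3 it gave 2771, 2853 and 2649, against 1331, 1153 and 1218 in DMSO. No neighbouring groups overlapped in the order doxorubicin, nutlin-3, DMSO and no treatment. The log2 change was 2.10 with doxorubicin (SE 0.10, adjusted p = 6.0e-11) and 1.15 with nutlin-3 (SE 0.10, adjusted p = 2.8e-07). Probe set 207029_at gave 315, 265 and 176 with doxorubicin against 91.1, 109 and 103 without treatment, and 375, 442 and 413 with nutlin-3 against 174, 184 and 144 in DMSO. Here the nutlin-3 arrays were the highest and the doxorubicin arrays overlapped those in DMSO, with log2 changes of 1.16 for doxorubicin (SE 0.19, adjusted p = 9.4e-05) and 1.22 for nutlin-3 (SE 0.19, adjusted p = 0.0002). Probe set 211124_s_at gave 162, 140 and 116 with doxorubicin against 81.5, 64.5 and 85.1 without treatment, and 238, 209 and 245 with nutlin-3 against 100, 74.5 and 83.3 in DMSO. The nutlin-3 arrays again stood highest, with log2 changes of 0.73 for doxorubicin (SE 0.20, adjusted p = 0.0059) and 1.28 for nutlin-3 (SE 0.20, adjusted p = 0.00019).

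The ratio of the KITLG probe sets within each array put this split in numbers. The signal of 226534_at was 22.1 to 30.9 times that of 211124_s_at with doxorubicin and 9.63 to 14.5 times without treatment, groups that did not overlap (exact permutation p = 0.1, the smallest possible here). It was 10.8 to 13.6 times with nutlin-3 and 13.3 to 15.5 times in DMSO, which overlapped (exact permutation p = 0.2). Against 207029_at the ratio was 11.3 to 20.3 with doxorubicin and 7.95 to 9.47 without treatment (exact permutation p = 0.1), and 6.41 to 7.38 with nutlin-3 and 6.25 to 8.44 in DMSO (exact permutation p = 0.4). On these arrays the probe sets of KITLG changed unequally with doxorubicin, with mean log2 shifts of these ratios of 1.27 and 0.84. The ratio of the CD82 probe sets also shifted without overlap, by -0.29, while the ratios of the tested PERP probe sets overlapped. How often the probe set ratios of genes outside this set shift without overlap was not counted. The files do not give where along the transcript each probe set lies. The doxorubicin array with the lowest signal of both dimmer probe sets, at 176 and 116, was the one with the highest ACTB ratio, 3.59, and the part of RNA quality in this difference was not tested. A KITLG probe set that did not pass the filter, 216974_at, gave 12.2, 29.0 and 0.918 with doxorubicin and at most 10.4 on the other arrays.

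EDA2R, the ectodysplasin receptor, was close to the filter on low signal and its arrays scattered widely. Its single probe set, 221399_at, gave 123, 129 and 94.9 signal units with doxorubicin, against 134, 8.57 and 33.9 without treatment. It gave 84.2, 75.6 and 43.2 with nutlin-3, against 13.9, 41.1 and 50.9 in DMSO. In both comparisons the groups overlapped, and the untreated arrays alone ranged more widely than those of any other group. The log2 change was 1.20 with doxorubicin (SE 0.50, 95% interval 0.13 to 2.27, unadjusted p = 0.03, adjusted p = 0.061) and 0.75 with nutlin-3 (SE 0.50, 95% interval -0.32 to 1.82, adjusted p = 0.36). Without untreated array 1, at 134, the doxorubicin change was 1.90 (SE 0.43, adjusted p = 0.002), while without untreated array 2, at 8.57, it was 0.60 (SE 0.45, adjusted p = 0.32). The estimate and its side of the threshold therefore rest on these untreated arrays.

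**Figure D2:**
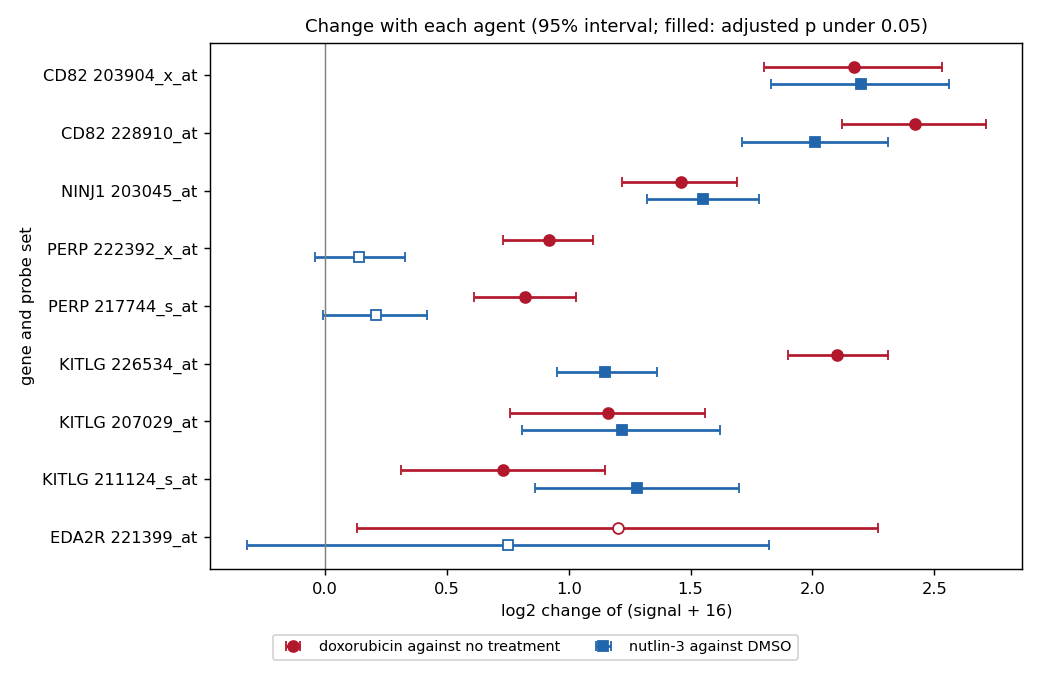
The log2 change of (signal + 16) of the 9 tested probe sets with doxorubicin against no treatment and with nutlin-3 against DMSO. Points are estimates, bars are 95% intervals, and filled points have an adjusted p under 0.05. All 9 doxorubicin estimates lie above 0, from 0.73 to 2.42, and the nutlin-3 estimates of PERP lie near 0, at 0.14 and 0.21.

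The responses to the agents differed for PERP and for 1 probe set of KITLG. The difference, the doxorubicin change minus the nutlin-3 change, was tested in the same fit, and 3 of the 9 probe sets were called, all higher with doxorubicin. Over all probe sets 30.4% were called in this comparison, 15.5% higher and 14.9% lower. The difference was 0.77 for PERP 222392_x_at (SE 0.12, 95% interval 0.51 to 1.03, adjusted p = 0.00019) and 0.62 for PERP 217744_s_at (SE 0.14, 95% interval 0.32 to 0.91, adjusted p = 0.0032). It was 0.95 for KITLG 226534_at (SE 0.14, 95% interval 0.66 to 1.24, adjusted p = 6.8e-05), but -0.06 for 207029_at (95% interval -0.63 to 0.51) and -0.55 for 211124_s_at (95% interval -1.14 to 0.05, adjusted p = 0.16). For CD82 it was -0.03 by 203904_x_at (95% interval -0.54 to 0.48) and 0.40 by 228910_at (95% interval -0.02 to 0.83, adjusted p = 0.14), so neither probe set passed the test. The upper end of the second interval, 0.83, reaches the size seen in PERP, so a difference of that size is not shown to be absent in CD82. The adjusted p of the NINJ1 difference, -0.09, was 0.7. Doses were not matched between the agents and each had its own control.

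The controls themselves differed for several of these genes, in both directions. DMSO against no treatment uses the same control arrays as the comparisons above, so its values are given beside them and not as separate support. In DMSO, 3 of the 9 probe sets were lower and 2 were higher, while over all probe sets 13.6% were called, 5.65% higher and 7.94% lower. The DMSO arrays of 3 probe sets lay wholly above and of 3 wholly below the untreated ones, against 15.2% and 18.4% of all probe sets. CD82 was lower in DMSO by both probe sets, with log2 changes of -0.72 (SE 0.17, adjusted p = 0.011) and -0.58 (SE 0.14, adjusted p = 0.013). NINJ1 was lower in DMSO at -0.44 (SE 0.11, adjusted p = 0.015). KITLG was higher in DMSO by 226534_at at 0.49 (SE 0.10, adjusted p = 0.0031) and by 207029_at at 0.64 (SE 0.19, adjusted p = 0.034). PERP had 0.26 and 0.16 (adjusted p = 0.064 and 0.3), and KITLG 211124_s_at and EDA2R had 0.13 and -0.23 (adjusted p = 0.72 and 0.82). Of these 5 calls that of KITLG 226534_at held under every alternative, and that of KITLG 207029_at was lost under 6 of 21: when dim probe sets were kept (adjusted p = 0.068), when untreated array 1, 2 or 3 was left out (adjusted p = 0.11, 0.052 and 0.067), and when DMSO array 1 or 2 was left out (adjusted p = 0.089 and 0.12). The calls of CD82 203904_x_at, CD82 228910_at and NINJ1 were lost under 2, 3 and 3 alternatives. The count of 5 was 2 without untreated array 1, 2 without untreated array 2 and 2 without DMSO array 2. With every array centred on its median log2 value, which lowered the median change of all probe sets with doxorubicin to -0.14 and raised that with DMSO to 0.11, CD82 228910_at (-0.45, adjusted p = 0.062) and NINJ1 (-0.31, adjusted p = 0.17) were no longer called in DMSO and PERP 222392_x_at was (0.38, adjusted p = 0.041).

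**Figure D3:**
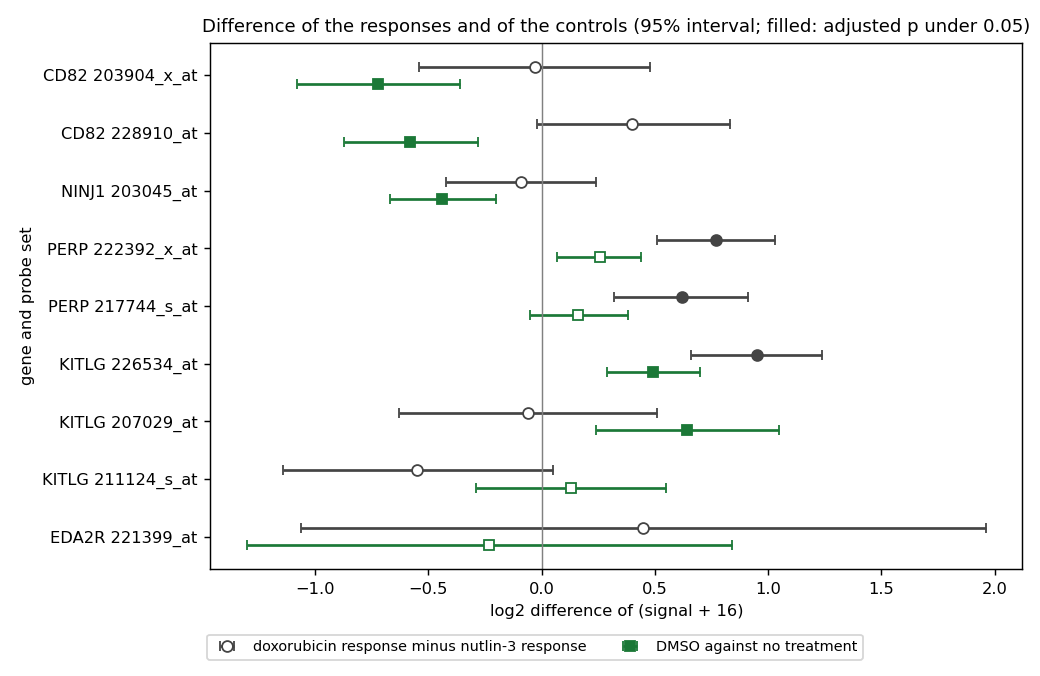
For each of the 9 tested probe sets, the doxorubicin response minus the nutlin-3 response, and DMSO against no treatment, both as log2 differences of (signal + 16). Bars are 95% intervals, and filled points have an adjusted p under 0.05. Both PERP probe sets and KITLG 226534_at lie to the right of 0 in the difference, at 0.62 to 0.95, while CD82 and NINJ1 lie to the left of 0 in DMSO.

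The genes varied together to different degrees across the 12 arrays, which fall into 4 groups, so the correlations describe the group pattern and carry no test. CD82 and NINJ1 had the closest profiles of different genes, with a Pearson r of 0.97 by either CD82 probe set. KITLG 226534_at correlated with CD82 at 0.90 and 0.91 and with PERP at 0.90 and 0.91, while KITLG 207029_at correlated with PERP at only 0.53 and 0.58. The dimmer KITLG probe sets correlated with each other at 0.93 and with 226534_at at 0.80 and 0.77. With the probe sets of other genes, EDA2R correlated at 0.32 to 0.68 and KITLG 207029_at at 0.32 to 0.66.

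All tested probe sets paired with 1 gene were compared with each member, and each gene was counted by its most similar probe set. Those most like CD82 203904_x_at over the 12 arrays were TRIB1 (r = 0.992), SERPINB5 (0.987) and NADSYN1 (0.986). TRIB1 encodes a pseudokinase, and SERPINB5 encodes maspin. Those most like NINJ1 were SYTL1 (0.990), KDM4B (0.987), a histone demethylase, and TRIM22 (0.986). The nearest to PERP 222392_x_at were RHBDF1 (0.989), ULBP2 (0.981), a surface ligand of natural killer cell receptors, and DNAJB9 (0.980), a chaperone of the endoplasmic reticulum. The nearest to KITLG 226534_at were STK17A (0.990), a death-associated kinase, BBS7 (0.988) and SPANXB1 (0.988). For EDA2R the nearest were CIB3 (0.913), POGLUT1 (0.900) and COBL (0.890), all below the values of the other 4 genes.

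The relatives and partners of these proteins were counted by gene, with 1 probe set each, where doxorubicin called 54.2% of all genes (29.3% higher and 24.9% lower) and nutlin-3 called 23.6% (11.1% higher and 12.5% lower). The median log2 change of all genes was 0.08 with doxorubicin and 0.00 with nutlin-3. Among 24 tested tetraspanins other than CD82, 12 rose and 2 fell with doxorubicin (median 0.46), and 4 rose and 3 fell with nutlin-3 (median -0.05). TSPAN11 rose by 2.87 with doxorubicin (SE 0.20, adjusted p = 9.1e-09), and TSPAN10 rose by 1.80 with doxorubicin (SE 0.18) and by 1.50 with nutlin-3 (SE 0.18). CD151, a tetraspanin that binds laminin-binding integrins, had -0.80 with doxorubicin (SE 0.15, adjusted p = 0.00031). TSPAN5 had -0.50 with doxorubicin but 0.52 with nutlin-3 (adjusted p = 0.00015 and 0.00035). TSPAN1 had 1.85 with nutlin-3 (SE 0.27, adjusted p = 9.3e-05) and 1.34 with doxorubicin (adjusted p = 0.00059). TSPAN13 and TSPAN3 had -0.72 and -0.41 with nutlin-3, but 0.48 and 0.74 with doxorubicin (adjusted p = 0.01 and 3.2e-06). Of the 12 integrins, receptors and other partners reported for CD82, 1 rose and 1 fell with doxorubicin and 4 rose with nutlin-3. ITGA6, a laminin receptor subunit, rose by 0.64 with doxorubicin and 1.11 with nutlin-3. MET, the receptor of hepatocyte growth factor, had -0.98 with doxorubicin (SE 0.12, adjusted p = 4.3e-06) but 0.50 with nutlin-3 (adjusted p = 0.0065). The difference of these responses was -1.48 (adjusted p = 7.3e-06). EGFR, the epidermal growth factor receptor, had 0.95 with nutlin-3 (SE 0.13, adjusted p = 5.9e-05) and -0.09 with doxorubicin (adjusted p = 0.59).

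In the list of NINJ1 relatives and genes of lytic cell death, 4 of 9 rose and none fell with doxorubicin, and 2 rose and none fell with nutlin-3. NINJ2, the paralog of NINJ1, gave 218 to 237 signal units with doxorubicin and 21.6 to 79.1 without treatment, and 73.2 to 104 with nutlin-3 and 98.7 to 125 in DMSO. It had a log2 change of 1.81 with doxorubicin (SE 0.30, adjusted p = 9.9e-05) and -0.31 with nutlin-3 (SE 0.30, adjusted p = 0.56), and the difference of 2.11 was past the threshold (SE 0.42, adjusted p = 0.0012). CASP1, the inflammatory caspase, rose by 1.33 with doxorubicin and had 0.44 with nutlin-3 (adjusted p = 0.11). GSDME, a pore-forming gasdermin, rose with both agents, by 0.72 with doxorubicin (adjusted p = 2.4e-06) and 1.01 with nutlin-3 (adjusted p = 2.3e-07), and the difference was not called (-0.29, adjusted p = 0.069). CASP4 had 0.22 with doxorubicin (adjusted p = 0.26) and 0.62 with nutlin-3 (adjusted p = 0.01), with a difference of -0.40 that was not called either (adjusted p = 0.19).

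PERP belongs to the PMP22 family, of whose 4 other tested genes 1 rose and 2 fell with doxorubicin, and 1 rose and 2 fell with nutlin-3. TMEM47 rose by 2.04 with doxorubicin (SE 0.12, adjusted p = 7.6e-10) and had -0.41 with nutlin-3 (SE 0.12, adjusted p = 0.02), a difference of 2.46 (SE 0.16, adjusted p = 3.6e-08). EMP1 went the other way: it averaged 2920 ± 628 signal units with doxorubicin and 5868 ± 502 without treatment, and 14182 ± 640 with nutlin-3 and 6808 ± 541 in DMSO (SD, n = 3 each). Its changes were -1.02 with doxorubicin (SE 0.12, adjusted p = 4.3e-06) and 1.06 with nutlin-3 (SE 0.12, adjusted p = 1.2e-05), and their difference was -2.08 (SE 0.18, adjusted p = 3.8e-07). EMP3 had -0.93 with doxorubicin and EMP2 had -1.14 with nutlin-3. Of 7 tested desmosome genes 3 rose and 3 fell with doxorubicin, and 1 rose and 1 fell with nutlin-3. DSP, which encodes the linker desmoplakin, rose by 1.16 with doxorubicin (adjusted p = 0.0066) and by 0.98 with nutlin-3 (adjusted p = 0.043), and JUP, plakoglobin, rose by 1.07 with doxorubicin. The plakophilins PKP4 and PKP2 had -1.11 and -0.80 with doxorubicin, and PKP4 had -0.61 with nutlin-3. Of the desmosomal cadherins, DSG2 averaged 3636 ± 279 signal units with doxorubicin and 2862 ± 282 without treatment (SD, n = 3 each), a log2 change of 0.35 (SE 0.10, adjusted p = 0.0078), and had 0.08 with nutlin-3 (adjusted p = 0.63). DSC2 passed the filter and had 0.09 with doxorubicin (adjusted p = 0.68) and -0.40 with nutlin-3 (adjusted p = 0.094). The other cadherins of the list, DSG1, DSG3, DSG4, DSC1 and DSC3 did not pass the filter, and no array gave any of them more than 68.3 signal units.

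KIT, the receptor for the KITLG product, did not pass the filter. Of 21 tested genes of KIT signalling, 6 rose and 1 fell with doxorubicin (median 0.09) and 3 rose and 2 fell with nutlin-3 (median -0.06). SRC, a kinase, rose by 1.31 with doxorubicin (SE 0.17, adjusted p = 6.4e-06), and STAT3, a transcription factor, rose by 0.79 with doxorubicin and by 0.66 with nutlin-3 (SE 0.08 each). PTPN11, a phosphatase, had -0.43 with doxorubicin. With nutlin-3 the adaptor SHC1 had 0.77, SOCS1, an inhibitor of cytokine signalling, -0.80 and PIK3R1 -0.33. With doxorubicin PIK3R1 went the other way, at 0.52 (adjusted p = 0.00073).

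Of 12 tested genes of the ectodysplasin pathway around EDA2R, 8 rose and 2 fell with doxorubicin, while none rose and 1 fell with nutlin-3. EDA, the gene of the ligand, averaged 98.6 ± 7.78 signal units with doxorubicin and 209 ± 19.9 without treatment, a log2 change of -0.97 (SE 0.19, adjusted p = 0.00046). It averaged 81.2 ± 11.4 with nutlin-3 and 112 ± 9.04 in DMSO (SD, n = 3 each), a change of -0.40 that did not pass (SE 0.19, adjusted p = 0.17). EDAR, the other ectodysplasin receptor, rose by 0.86 with doxorubicin (SE 0.27, adjusted p = 0.016), and IKBKB, a kinase of the NF-kB pathway, by 1.08. TAB2 had -0.47 with doxorubicin, and TNFRSF19, another TNF receptor family member, had -1.35 with nutlin-3 (SE 0.29, adjusted p = 0.003).

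Another list held 21 other tested genes for surface or other membrane proteins described as p53 targets. It too was chosen with earlier results of these data known. Of these genes 16 rose and 1 fell with doxorubicin, with a median of 1.64 (against 0.08 over all genes). For nutlin-3, 12 rose and 1 fell (median 0.82, against 0.00). The difference of the responses was called for 11 of the 21, all higher with doxorubicin, where 36.9% of all genes were called, 20.3% higher and 16.6% lower. TGFA, a ligand of the epidermal growth factor receptor, rose by 3.18 with doxorubicin (SE 0.12, adjusted p = 7.0e-12), and ICOSLG, a costimulatory ligand for T cells, by 2.91 (SE 0.24, adjusted p = 4.3e-08). With nutlin-3, FAS, the death receptor, rose by 2.19 (SE 0.08, adjusted p = 4.5e-11) and LAPTM5 by 1.84 (SE 0.21, adjusted p = 7.8e-06). VANGL2, a planar polarity protein, had -0.49 with doxorubicin (SE 0.10, adjusted p = 0.00074), and ABCB1, a drug efflux pump, had -0.52 with nutlin-3 (SE 0.16, adjusted p = 0.03). The DMSO control of ABCB1 was itself higher than no treatment, by 0.62 (adjusted p = 0.016). Set beside these, the log2 changes of CD82, at 2.17 and 2.42 with doxorubicin and 2.20 and 2.01 with nutlin-3, stood beside 2.35 with doxorubicin and 2.19 with nutlin-3 for FAS.

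**Figure D4:**
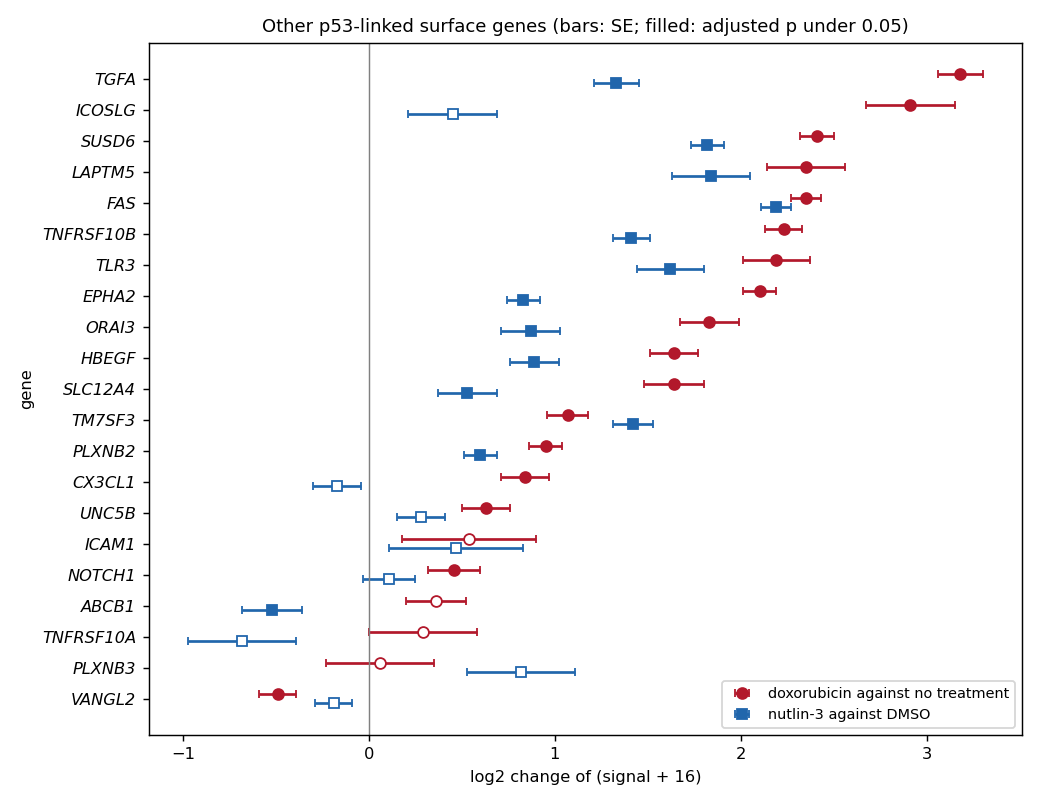
The log2 change of (signal + 16) of 21 other genes for surface or other membrane proteins described as p53 targets, 1 probe set each, with doxorubicin against no treatment and with nutlin-3 against DMSO. Bars are SE, and filled points have an adjusted p under 0.05. With doxorubicin 16 points are filled and above 0, and with nutlin-3 12 are, mostly nearer to 0.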

How the data were processed

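RNA of U2OS cells was hybridised to 12 Affymetrix Human Genome U133 Plus 2.0 arrays after 3' in vitro transcription, per the labels' protocols. The deposited values are linear signal intensity per probe set, made with MAS5 per the submitters' processing notes; no version or detection call was used here. The 2% trimmed mean was 500.06 to 500.07 on every array. Of 54675 probe sets, 62 are controls, and of the rest 41091 are paired with 1 symbol, 1801 with several and 11721 with none in the platform annotation; positions, promoters and start sites are RefSeq's.

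Groups came from the titles. Values became log2(signal + 16), so changes of dim probe sets are understated. Control probe sets and those with a mean under the 40th percentile (54.6) were left out, and limma 3.58.1 (R 4.3.3; lmFit, eBayes with trend) was fitted to all 12 arrays with 4 group means and Benjamini-Hochberg adjustment over 32768 probe sets. The number of arrays limits the precision. The fit was tested on simulated data. A gene in a list stood for its probe set with the highest mean past the filter.

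Named genes were every probe set of the 5 genes, MDM2 and CDKN1A, up to 2 called genes with the largest rise and 2 with the largest fall per list and agent, and the 3 genes most correlated with each member. The values of NINJ2, EDA, CASP1, TSPAN5 and MET with nutlin-3 were given outside that rule after they were seen. So were those of FAS, GSDME, CASP4, EPCAM, TSPAN1, TSPAN3, TSPAN13, EGFR and PIK3R1 with doxorubicin. The same holds for DSG2, DSC2, SPARC, VIM, KIT, the genes under the filter, and ABCB1 and the epithelial markers in DMSO. The members and the lists were chosen with earlier results of these data known. Alternatives were pseudocounts of 1 and 64, no filter, the 60th percentile, quantile normalization, median centring, 1 probe set per gene, no trend, only the arrays compared, the replicate number as a block, and each array left out.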

Additional observations from a re-analysis of the deposited data

Results flagged for a closer look

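For 3 of the 9 tested probe sets the response to doxorubicin differed from the response to nutlin-3 when the difference itself was tested. Over all probe sets 30.4% were called in this comparison (15.5% higher and 14.9% lower), so a call was not unusual. PERP 222392_x_at differed by 0.77 on the log2 scale (SE 0.12, adjusted p = 0.00019 in limma), with changes of 0.92 with doxorubicin and 0.14 with nutlin-3. PERP 217744_s_at differed by 0.62 (SE 0.14, adjusted p = 0.0032), with 0.82 with doxorubicin and 0.21 with nutlin-3. KITLG 226534_at differed by 0.95 (SE 0.14, adjusted p = 6.8e-05), with 2.10 with doxorubicin and 1.15 with nutlin-3. The other tested probe sets of KITLG were not called in the difference. They had -0.06 for 207029_at and -0.55 for 211124_s_at (adjusted p = 0.9 and 0.16). The DMSO arrays of KITLG 226534_at lay above the untreated ones by 0.49. Those of PERP 222392_x_at also lay wholly above them, by 0.26, which was not called (adjusted p = 0.064). PERP 217744_s_at had 0.16 (adjusted p = 0.3), and its arrays overlapped. The ACTB ratio was higher on the doxorubicin arrays, at 3.12 ± 0.577 against 1.53 ± 0.0754 on the untreated ones (SD, n = 3 each). The part of the controls and of the ACTB ratio in these differences was not tested. Groups of 3 arrays are too small to single out one array as far from the others.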

How the results depend on the processing

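Of 759 values of single probe sets under the alternatives, 729 kept their direction and their side of the threshold, 14 were no longer called, 4 became called and 12 changed sign. Every call of CD82, NINJ1, PERP and KITLG with doxorubicin or nutlin-3 and every called difference held under every alternative that tested it. The doxorubicin change of EDA2R was 0.60 to 1.90 over the alternatives (adjusted p 0.002 to 0.32). The sign changes were in values that were not called. The CD82 203904_x_at difference of -0.03 was 0.05 with a pseudocount of 64 and 0.07 with quantile normalization, and with 1 array left out it was -0.19 to 0.14. Also with 1 array left out, the difference was -0.19 to 0.04 for NINJ1, -0.23 to 0.16 for KITLG 207029_at and -0.15 to 1.15 for EDA2R, and EDA2R in DMSO was -0.84 to 0.47. The ACTB ratio difference was 1.35 to 1.91 for doxorubicin and 0.0149 to 0.0434 for nutlin-3 with 1 array left out; that of GAPDH was -0.00914 to 0.0969 for doxorubicin and -0.00251 to 0.0153 for nutlin-3.

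With 1 probe set per gene, 4 of the 5 genes were called with doxorubicin (7668 of all), 3 with nutlin-3 (3628 of all), 2 in the difference (5436 of all) and 3 in DMSO (1959 of all), since fewer were tested. With 1 array left out, the counts were 8 to 9 with doxorubicin (all probe sets 13957 to 15635), 6 with nutlin-3 (4417 to 6220), 3 in the difference (8518 to 9753) and 2 to 5 in DMSO (2471 to 4967). The DMSO count over all probe sets, 4453, was 2718 without untreated array 1, 2708 without DMSO array 2 and 2471 without DMSO array 3. With no filter 9 of 13 probe sets were called with doxorubicin, where 29.2% of all were (15967). Median centring moved the share of calls that were higher to 34.1% from 50.1% with doxorubicin, to 34.9% from 51.0% in the difference and to 64.2% from 41.5% in DMSO.

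Whether the replicate numbers pair the arrays is not settled. Same-numbered deviations correlated at -0.033, -0.067 and -0.045 for doxorubicin with no treatment and 0.199, 0.009 and 0.102 for nutlin-3 with DMSO. Differently numbered ones correlated at -0.11 to 0.158 for doxorubicin and at -0.157 to 0.068 for nutlin-3. With the replicate block, 8 of the 9 probe sets were called with doxorubicin (16087 of all), 6 with nutlin-3 (6532 of all), 3 in the difference (10722 of all) and 6 in DMSO (5222 of all). EDA2R lay near the filter, where scatter between arrays limits what 3 arrays can show, and no detection calls were used.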
